A study of Mus musculus with 8 samples.

Results

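The 10 receptors described here, Stab1, Stab2, Mrc1, Lyve1, Fcgr2b, Clec4g, Scarf1, Msr1, Marco and Colec12, are scavenger and lectin receptors named for the walls of the liver sinusoids. They are 10 of the 31053 genes of a deposited matrix of unique molecular identifiers (UMIs, 1 per captured transcript molecule). The matrix holds single liver cells of 8 mice, 1 library per mouse, 4 mice on a control diet and 4 on a high fat, high cholesterol (HFHC) diet. Per the labels, all mice were male C57BL/6 animals with an age given as 6 to 8 weeks. The labels also say that the controls had chow and the HFHC mice the HFHC diet for 20 to 32 weeks. The age given is shorter than the time on diet, so it cannot be the age at which the cells were taken. Non-parenchymal cells were cleared of dead cells, sorted after a stain for PDPN, CD146, CD31 and CD45, and how the sort was gated is not given in the sources used here. For the HFHC diet, sample titles read calorie and the design text reads cholesterol.

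Sinusoidal endothelial cells line the capillaries of the liver and are known as a major site of clearance of circulating waste. Their receptors take up modified lipoproteins, hyaluronan, collagen fragments, exposed mannose and small immune complexes, which clathrin-coated vesicles carry to lysosomes. Macrophages carry an overlapping set of scavenger receptors, of which Msr1 and Marco are class A members known first from macrophages. Stab1 and Stab2 encode the stabilins, large class H scavenger receptors, and Stab2 also binds hyaluronan. Mrc1 encodes the mannose receptor, Clec4g the C-type lectin LSECtin, Fcgr2b the inhibitory low-affinity IgG receptor, and Lyve1 a hyaluronan-binding protein known as a lymphatic marker. Scarf1 is a class F receptor of endothelial cells, and Colec12 is a collectin with a scavenger receptor structure.

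In GENCODE vM21 on mm10, all 10 are protein-coding genes, on chromosomes 14 (Stab1, 31139013 to 31168641), 10 (Stab2, 86841198 to 87008025), 2 (Mrc1, 14229392 to 14332057) and 7 (Lyve1, 110850607 to 110863239). Fcgr2b (170958617 to 170976547) and Marco (120474538 to 120505024) are on chromosome 1. Clec4g (3707064 to 3720651) and Msr1 (39581685 to 39642673) are on chromosome 8, and Scarf1 is on chromosome 11 (75513540 to 75526582). Of the 60-base windows in the last 400 bases of their transcripts, where this chemistry counts, none occurred in another gene for 9 of the receptors, and 3.30% did for Colec12.

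The RefSeq promoter table on GRCm38.p6 held 6 of the 10 receptors. The 250 bases before the start are printed for Stab1 (chr14:31168642-31168891, minus strand), Stab2 (chr10:87007943-87008192, minus strand), Mrc1 (chr2:14229164-14229413, plus strand) and Clec4g (chr8:3720652-3720901, minus strand). These were chosen because their levels ran together over cell gates, as given further on. Capitals mark matches on either strand to 3 motifs. The first is the ETS core GGAAG, read as CTTCC on the opposite strand. The second is the CCAAT box, which is ATTGG when read from the opposite strand. The third is the TATA box, searched as TATAAA, which is TTTATA when read from the opposite strand. The matches of different motifs did not overlap.
Stab1: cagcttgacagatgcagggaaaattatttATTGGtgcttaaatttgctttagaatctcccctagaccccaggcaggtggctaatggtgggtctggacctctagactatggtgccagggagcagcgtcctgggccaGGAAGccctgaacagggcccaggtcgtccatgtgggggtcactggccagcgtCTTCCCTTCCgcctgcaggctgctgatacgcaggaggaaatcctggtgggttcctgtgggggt
Stab2: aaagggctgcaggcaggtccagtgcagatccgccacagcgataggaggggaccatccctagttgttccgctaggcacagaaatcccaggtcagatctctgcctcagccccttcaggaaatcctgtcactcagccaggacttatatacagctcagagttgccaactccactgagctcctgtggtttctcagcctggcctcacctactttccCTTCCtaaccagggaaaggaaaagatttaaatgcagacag
Mrc1: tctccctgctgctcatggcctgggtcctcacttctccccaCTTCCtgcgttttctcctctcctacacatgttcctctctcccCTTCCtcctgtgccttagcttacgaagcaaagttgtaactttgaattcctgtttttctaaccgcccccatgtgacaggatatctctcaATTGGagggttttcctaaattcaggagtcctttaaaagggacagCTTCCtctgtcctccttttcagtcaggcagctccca
Clec4g: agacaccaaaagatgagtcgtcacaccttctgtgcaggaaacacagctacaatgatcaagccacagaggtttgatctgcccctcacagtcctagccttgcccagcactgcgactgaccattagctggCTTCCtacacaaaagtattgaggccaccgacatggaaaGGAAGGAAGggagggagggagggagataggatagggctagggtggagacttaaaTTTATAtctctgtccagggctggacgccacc
The ETS core was present in all 6 windows, and also in 64.1% of all 32536 promoters of this length. Stab1, Mrc1 and Clec4g held 3 matches each and Stab2 held 1. The Clec4g window held a TATA box at base -31 (12.3% of all promoters hold one), and the Stab1 and Mrc1 windows a CCAAT box at -221 and -80 (33.8%). The GATA words AGATAA (9.97%) and TGATAA (7.79%) and the MAF word TGCTGAC (3.79%) did not occur in these 6 windows. A match describes letters only.

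Some libraries had cell barcodes in common, 33 to 65 for each pair among the first 2 controls and the first 3 HFHC libraries, and at most 4 for any other pair. A barcode found in more than 1 library was assigned to the one with its highest UMI total, which removed 224 of 3416 cells and left 47 to 875 cells and 170448 to 2309209 UMIs per library. The library labelled control 4 held 282 UMIs of Xist, the transcript of the inactive X chromosome, and 0 of 4 Y-linked genes, whereas the other 7 held 0 and 18 to 284. It thus went against its label of a male mouse, and results that rest on it are named as such. Intervals for single libraries and upper limits for counts of 0 cover counting error only. A fold given as at least sets the observed count against 3 counts and leaves out the counting error of the observed count. The p-values rest on the spread between these libraries. Where gates of the same libraries were compared, they rest on the spread of the differences within libraries.

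Cells were placed in gates by the number of detected markers of each cell type, and no gate marker is among the 10 receptors. The endothelial gate took 1326 of the 3192 cells, the hepatocyte gate 1359 and the macrophage gate 66. Within the endothelial gate, 1203 cells carried sinusoidal markers (Dnase1l3 in 94.1% and Maf in 87.8% of them), 51 vascular and 25 lymphatic ones. Libraries differed widely in these cells. The sinusoidal gate held 18, 70, 530 and 40 cells in controls 1 to 4 and 539 in HFHC 4, but 3, 0 and 3 in HFHC 1 to 3. The macrophage gate held 19, 24 and 15 cells in HFHC 1 to 3 and at most 3 in any other library. Diet within the sinusoidal gate therefore rests on 1 HFHC mouse, and the macrophage values on 3 HFHC mice of the barcode-sharing set. Lyz2 was found in 65 of the 66 macrophage-gate cells and C1qb in 49, while the Kupffer cell marker Clec4f was found in 14.

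Nearly all UMIs of 7 of the receptors lay in endothelial cells. The endothelial gate held 8722 of 8875 Clec4g UMIs (98.3%), 208 of 213 for Scarf1 (97.7%), 1741 of 1786 for Mrc1 (97.5%) and 1885 of 1937 for Stab1 (97.3%). The shares were 95.9% of 2129 UMIs for Stab2, 95.9% of 4461 for Fcgr2b and 95.5% of 968 for Lyve1. Msr1 was less one-sided, with 339 of 377 UMIs (89.9%) in the endothelial gate and 29 in the macrophage gate. These shares depend on how many cells of each kind were loaded. Colec12 had only 36 UMIs, of which 18 lay in the 43 cells of the mesenchymal gate and 8 in the endothelial gate. Marco, a macrophage receptor of the marginal zone and of Kupffer cells, had 1 UMI in all 3192 cells, in a macrophage-gate cell of control 3. The map of levels by gate shows these patterns in CPM, the UMIs of a gene in the summed cells per 1000 × 1000 UMIs of all genes.

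**Figure D1:**
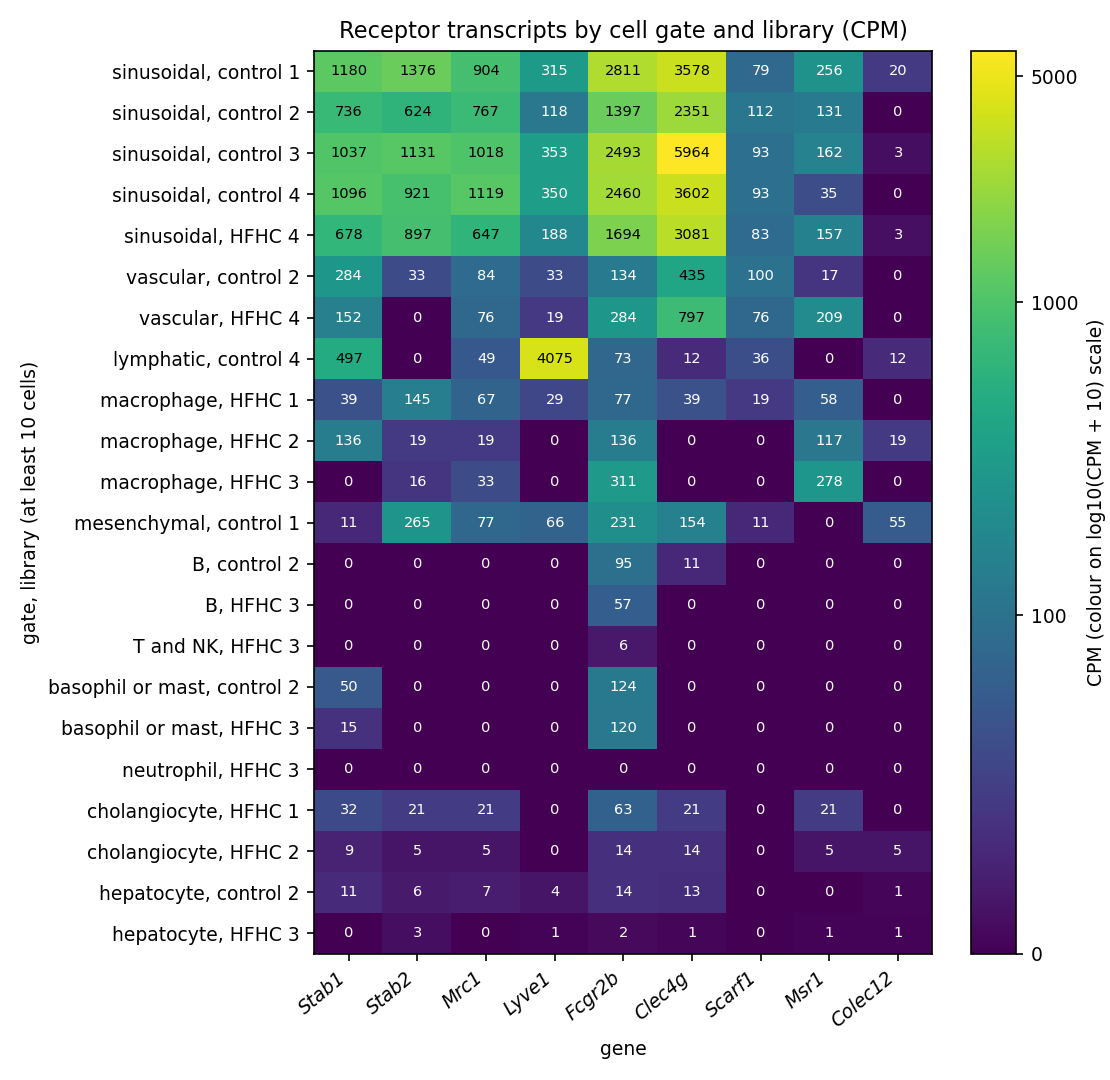
Level of 9 receptors (columns; Marco, with 1 UMI in all, is left out) in each gate and library with at least 10 cells (rows). Numbers are CPM of the summed cells and colour is on a log10(CPM + 10) scale; the 5 sinusoidal rows are high for most receptors, lymphatic cells of control 4 stand out for Lyve1 at 4075 CPM, and hepatocyte rows stay under 20 CPM.

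Hepatocyte-gate cells, which should lack these receptors, gave a background level. Whether these UMIs were free RNA was not tested. In control 2, 675 such cells (median 1094 UMIs) had a UMI of a given receptor in 0% to 2.22%, the highest for Clec4g. In HFHC 3 the range over 680 cells (median 1970 UMIs) was 0% to 0.735%, the highest for Stab2. At 1000 UMIs per cell, 98.0% of hepatocyte-gate cells and all 78 T and NK cells of that depth had none of the 10 receptors.

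Within the sinusoidal gate, Clec4g transcripts were at 3578, 2351, 5964 and 3602 CPM in controls 1 to 4 and at 3081 CPM in HFHC 4. Control 3 was the highest and control 2 the lowest. Clec4g was found in 85.0% to 100% of the cells of each library, so that few sinusoidal-gate cells were without it. Fcgr2b stood at 2811, 1397, 2493 and 2460 CPM in the controls and at 1694 CPM in HFHC 4, again with control 2 lowest, and was found in 80.0% to 87.5% of cells. The mean over the controls was 3874 ± 1511 CPM for Clec4g and 2290 ± 616 CPM for Fcgr2b (SD, n = 4).

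The stabilins and the mannose receptor were each found in most sinusoidal-gate cells of every library. Stab2 was at 1376, 624, 1131 and 921 CPM in the controls (1013 ± 319, SD, n = 4) and at 897 CPM in HFHC 4. Stab1 was at 1180, 736, 1037 and 1096 CPM in the controls (1012 ± 193, SD, n = 4) and at 678 CPM in HFHC 4. Mrc1 was at 904, 767, 1018 and 1119 CPM in the controls (952 ± 151, SD, n = 4) and at 647 CPM in HFHC 4. For Stab1 and Mrc1, HFHC 4 was thus below all 4 controls, while for Stab2 it lay among them. Their UMIs were found in 63.6% to 83.3% (Stab1), 58.6% to 72.5% (Stab2) and 58.3% to 80.0% (Mrc1) of cells per library.

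Lyve1 was low in control 2 and similar in the other controls. It was at 315, 118, 353 and 350 CPM in controls 1 to 4 and at 188 CPM in HFHC 4, and its share of cells was 10.0% in control 2 against 32.5% to 33.3% in the other controls and 21.9% in HFHC 4. Msr1 was at 256, 131, 162 and 35.0 CPM in the controls and at 157 CPM in HFHC 4. The low value of control 4 rests on 3 UMIs in 40 cells. Scarf1 was low in all 5 libraries, at 78.6, 112, 93.0 and 93.3 CPM in the controls and 83.5 CPM in HFHC 4, and was found in 12.6% to 20.0% of cells. Colec12 had 7 UMIs in the 1203 cells. Marco had 0, which allows a level of up to 1.45 CPM over the gate.

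**Figure D2:**
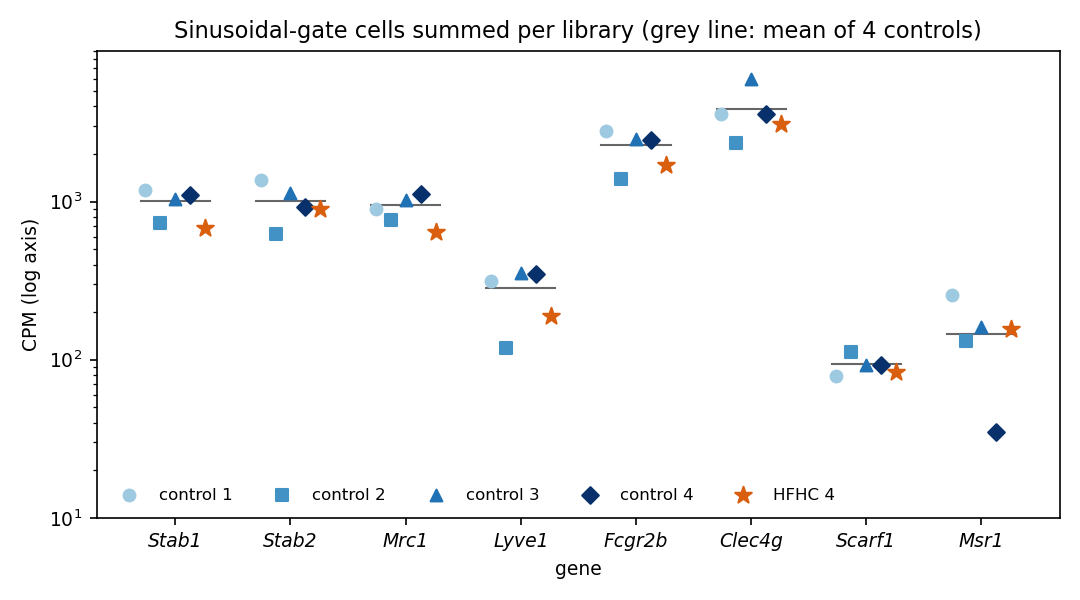
CPM (log axis) of 8 receptors in the summed sinusoidal-gate cells of 5 libraries: 4 controls (blue shades, grey line at their mean) and HFHC 4 (orange star). HFHC 4 lies below all controls for Stab1 (678 CPM) and Mrc1 (647 CPM) and within their range for the other 6.

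With every cell thinned to 1000 UMIs, so that depth was equal, 917 sinusoidal-gate cells remained and 286 shallower ones were left out. A sinusoidal-gate cell held a median of 4 of the 10 receptors, 83.1% held at least 3, 1.42% held none, and the most in 1 cell was 8. Such counts depend on the share of cells with each receptor. Whether receptors shared cells more often than those shares give was not tested. By library, 92.9%, 62.5%, 93.5% and 82.9% of cells held at least 3 in the controls and 76.4% in HFHC 4, so control 2 was again lowest. Of 46 vascular-gate cells at this depth none held 3, of 22 lymphatic-gate cells 9.09% did, and of 54 macrophage-gate cells 1.85%. Equal depth lowered single shares, for Stab1 to 43.8% to 71.4% of cells per library and for Stab2 to 43.8% to 66.7%. The plot of shares at equal depth gives the values by gate and library.

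**Figure D3:**
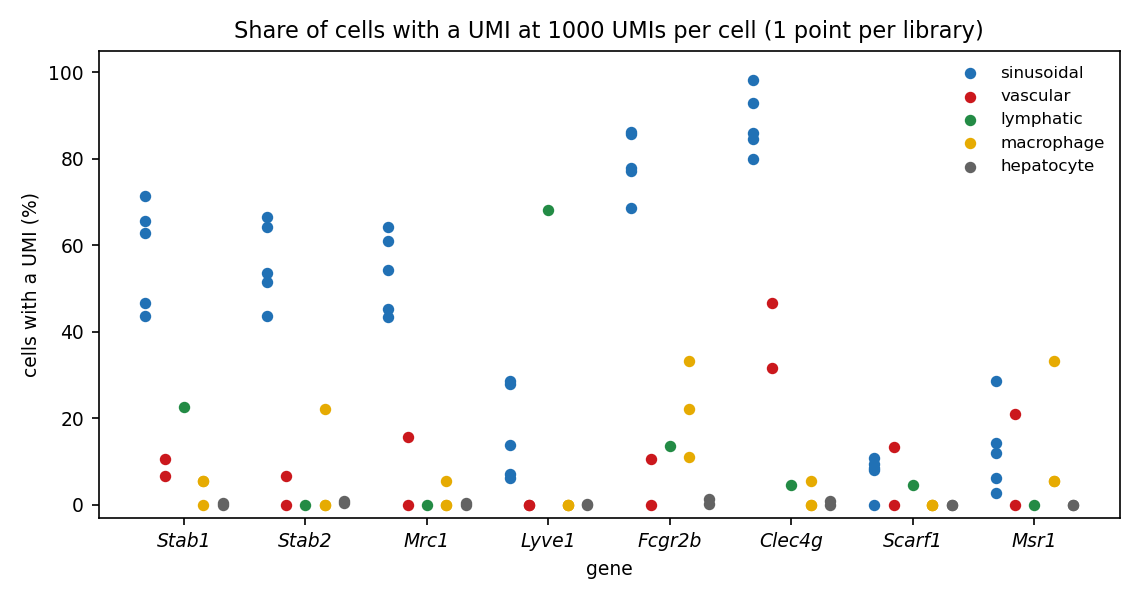
Share of cells (%) with at least 1 UMI of 8 receptors after thinning each cell to 1000 UMIs, 1 point per library with at least 10 such cells, coloured by gate. Sinusoidal points lie between 43.6% and 98.2% for Stab1, Stab2, Mrc1, Fcgr2b and Clec4g, and hepatocyte points lie at or below 1.34% for every receptor.

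Over 20 sums of a library and a gate, the log2(CPM + 10) levels of most receptors ran together, which describes mainly how endothelial a sum is. Stab2 and Mrc1 had a Pearson correlation of 0.98, Clec4g had 0.95 with Stab2 and 0.96 with Mrc1, and Scarf1 had 0.97 with Clec4g. Stab1 correlated at 0.87 with Stab2. Msr1 had lower correlations with these, of 0.76 with Mrc1, 0.74 with Fcgr2b, 0.71 with Stab2, 0.69 with Stab1, 0.65 with Scarf1, 0.60 with Clec4g and 0.48 with Lyve1. Colec12 had 0.13 to 0.39 with the others except Marco. The sums share libraries and depth, so no test is given. Among 9050 genes, the ones most like Mrc1 were Eng (0.99), the endoglin co-receptor of TGF-beta family ligands, and Cd300lg (0.98). Those most like Clec4g were Dnase1l3, a secreted nuclease that is also a sinusoidal gate marker (0.99), and Gpihbp1, the endothelial anchor of lipoprotein lipase (0.98). For Msr1 they were Ifi207 (0.92), Sdc3 (0.89) and Hfe (0.88), and for Colec12 Plxdc2 (0.91) and the fibroblast genes Col1a2 (0.89) and Mmp2 (0.86).

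Sinusoidal endothelium changes along the path of blood from the portal tract to the central vein. Zones were called within the sinusoidal gate from lists of markers, of which 1 was enough, and 3 libraries held at least 10 cells of each. Over all libraries, periportal cells carried Ly6a (78.0% of them), Ltbp4 (77.8%), Dll4 (22.8%) and Efnb2 (19.5%), among others. Pericentral cells carried Fabp4 (87.1%), Wnt2 (55.2%), Kit (43.0%) and Rspo3 (15.6%), among others. Msr1, the class A receptor for modified lipoproteins, was much higher in periportal cells, and the other receptors were not found to differ. In control 2, Msr1 had 20 UMIs in 22 periportal cells (427 CPM) and 0 in 39 pericentral cells, at least 13.6-fold higher (against 3 counts). In control 3 it had 84 UMIs in 191 periportal cells (311 CPM) and 21 in 217 pericentral cells (60.1 CPM), a ratio of 5.17 (95% interval 3.17 to 8.78). In HFHC 4 it had 111 UMIs in 259 periportal cells (245 CPM) and 13 in 148 pericentral cells (48.4 CPM), a ratio of 5.06 (2.84 to 9.80). All 3 periportal values lay above all 3 pericentral values.

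Compared within libraries by edgeR, the log2 difference of Msr1 was 2.63 (SE 0.28, adjusted p = 2.02e-11). Of 4820 genes tested, 1.76% passed in either direction and 0.892% were higher in periportal cells, and Msr1 was the 1 of 8 tested receptors that passed. The call held in 12 of 13 settings (log2 2.33 to 3.37) and ended with DESeq2 (3.37, adjusted p = 0.445). It also held without control 2, the barcode-sharing library (2.33, adjusted p = 0.00484). The 13 include the reported fit, and a minimum of 20 cells gave that same fit. Median depth was 1434 UMIs in periportal and 1609 in pericentral cells of control 3, and 1672 and 1619.5 in HFHC 4. At 1000 UMIs per cell, Msr1 was found in 22.2%, 21.7% and 21.4% of periportal cells of the 3 libraries and in 0%, 5.29% and 6.60% of pericentral cells.

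Msr1 is also a macrophage gene, so the 12 macrophage markers were summed in the same cells. They gave 21.4, 48.1 and 19.8 CPM in periportal cells of control 2, control 3 and HFHC 4 and 52.2, 40.1 and 40.9 CPM in pericentral cells. In the same order, 11, 8 and 8 of the 12 were at 0 in periportal cells and 8, 9 and 7 in pericentral cells. Detected in periportal cells were Lyz2 in control 2, C1qa, C1qb, Clec4f and Cd5l in control 3, and C1qa, C1qb, Aif1 and Lyz2 in HFHC 4. In cells without any macrophage marker, Msr1 was at 300.0 against 63.6 CPM in control 3 (ratio 4.71, 2.88 to 8.05) and 249 against 49.1 CPM in HFHC 4 (5.08, 2.85 to 9.85). In control 2 all 20 periportal UMIs lay in such cells. Control 4 held 4 periportal cells and entered no zone comparison.

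The other 7 tested receptors had log2 differences between -0.23 and -0.03, with adjusted p of at least 0.632. Stab2 was at 470, 1143 and 792 CPM in periportal and 689, 1108 and 1001 CPM in pericentral cells (log2 -0.21, SE 0.13, adjusted p = 0.705). Mrc1 was lower in periportal cells of all 3 libraries, at 513, 936 and 633 against 783, 1042 and 707 CPM (-0.23, SE 0.13, adjusted p = 0.632), as were 15.5% of the genes tested. Clec4g (-0.03, SE 0.10) and Fcgr2b (-0.03, SE 0.11) had the smallest differences and errors. Lyve1 had 0 UMIs in periportal and 16 in pericentral cells of control 2, at least 2.61-fold lower. Of these 16 UMIs 12 lay in 1 cell, so the fold rests mainly on that cell. Periportal and pericentral Lyve1 levels were 362 and 332 CPM in control 3 and 174 and 179 CPM in HFHC 4.

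**Figure D4:**
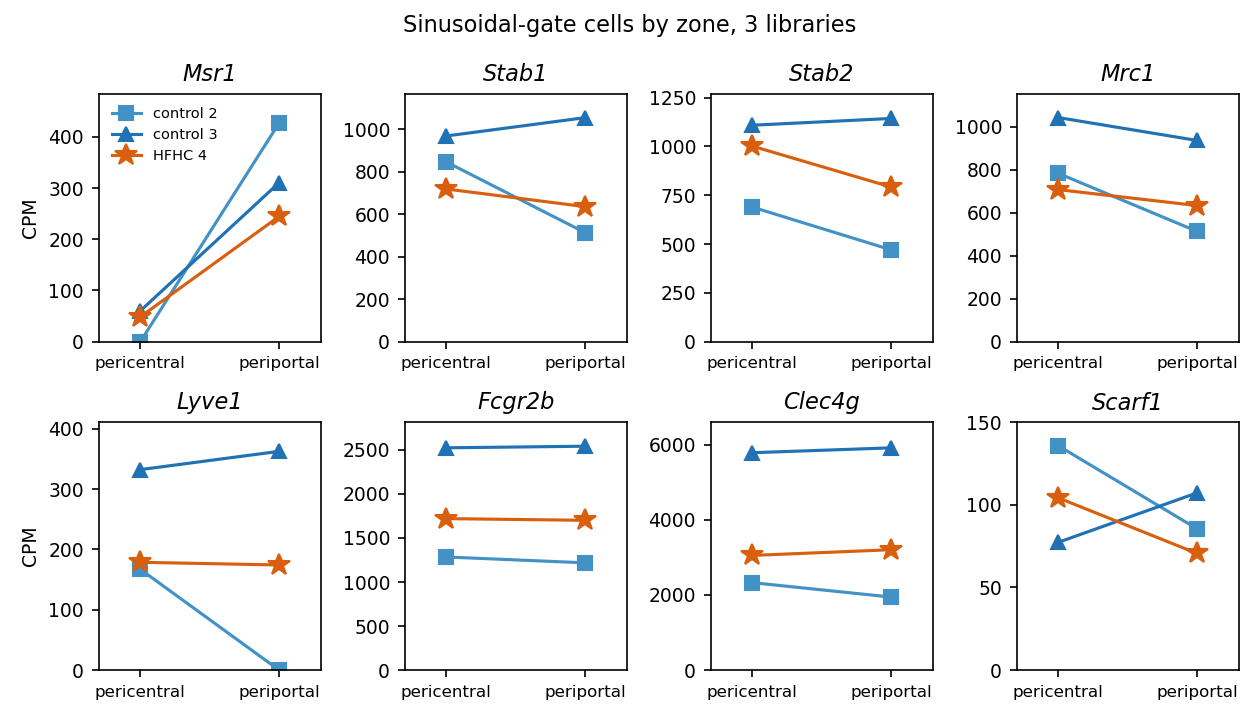
CPM of 8 receptors in pericentral and periportal sinusoidal-gate cells of control 2, control 3 and HFHC 4, each panel with its own axis from 0. Msr1 is higher in periportal cells of all 3 libraries (427, 311 and 245 against 0, 60.1 and 48.4 CPM), while lines of the other receptors are flatter or differ in direction between libraries.

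Of the other scavenger, lectin and Fc receptors, 14 of 46 were tested along the sinusoid, 0 were higher in periportal cells and 2 were lower, as were 0.871% of all genes tested. These were Fcgrt, the neonatal Fc receptor that recycles IgG and albumin (-0.60, SE 0.14, adjusted p = 0.00360), and Clec1b, the podoplanin receptor CLEC-2 (-0.57, SE 0.16, adjusted p = 0.0333). The call of Fcgrt held in 10 of 13 settings and ended with DESeq2, without control 2 and without control 3 (adjusted p of 1.00, 0.227 and 0.535). That of Clec1b held in 6 of 13 and ended with DESeq2 (1.00) and without control 2, control 3 or HFHC 4 (0.221, 0.493 and 0.360), among others. The median over the 14 was 0.05, against -0.0028 over all genes tested. Of 41 genes of endocytosis and lysosomes 32 were tested, 0 were higher and 2 lower, the lysosomal protease Ctsd (-0.65, SE 0.16, adjusted p = 0.00561) and the dynamin Dnm2 (-1.31, SE 0.34, adjusted p = 0.0155). Both calls ended with DESeq2 (adjusted p = 1.00) and without any 1 of the 3 libraries (0.144 to 0.308 for Ctsd and 0.221 to 0.316 for Dnm2). The median of the 32 was -0.07. Colec12 had 0, 1 and 3 UMIs in periportal cells of control 2, control 3 and HFHC 4 and 0 in their pericentral cells, and Marco had 0 in both.

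Vascular endothelial cells, of the larger vessels, carry markers such as Vwf and Gja4, and 2 libraries held at least 5 of them beside sinusoidal cells: control 2 with 15 and HFHC 4 with 24. Most of the receptors were far lower there than in sinusoidal cells, and Scarf1 had the smallest difference. Stab2 had 100 UMIs in sinusoidal and 2 in vascular cells of control 2 (624 and 33.4 CPM, ratio 18.6, 95% interval 5.03 to 156). In HFHC 4 it had 860 and 0, at least 15.8-fold higher in sinusoidal cells. Mrc1 was at 767 and 83.6 CPM in control 2 and at 647 and 75.9 CPM in HFHC 4. Fcgr2b was at 1397 and 134 CPM and at 1694 and 284 CPM. In both libraries every one of these sinusoidal levels lay above the vascular one. HFHC 3 held 5 vascular cells but 3 sinusoidal ones and did not enter the test. There Fcgr2b had 15 UMIs in vascular and 11 in sinusoidal cells (897 and 848 CPM), whereas Stab2 had 0 and 12, Clec4g 3 and 9, Mrc1 2 and 15 and Stab1 5 and 17.

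Within libraries, edgeR called 6 of the 8 tested receptors higher in sinusoidal cells and 0 lower, where 5.46% of 1941 genes passed in either direction, 2.63% higher and 2.83% lower. The log2 differences were 5.40 for Stab2 (SE 0.64, adjusted p = 0.000215), 3.17 for Mrc1 (0.42, 0.000444), 2.96 for Fcgr2b (0.37, 0.000363), 2.21 for Clec4g (0.32, 0.000775), 1.74 for Stab1 (0.37, 0.00975) and 2.53 for Lyve1 (0.68, 0.0461). DESeq2 ended the calls of Stab1 (adjusted p = 0.0602) and Lyve1 (0.601), and asking for 3 gate markers ended that of Lyve1 (0.0703). The fit has 2 libraries and 1 residual degree of freedom. Scarf1 was at 112 and 100 CPM in control 2 and at 83.5 and 75.9 CPM in HFHC 4 (log2 0.18, SE 0.52, adjusted p = 0.925). Msr1 went opposite ways, at 131 against 16.7 CPM in control 2 (21 UMIs and 1) and at 157 against 209 CPM in HFHC 4 (150 and 11), with a log2 difference of 0.45 (SE 0.59, adjusted p = 0.800). All 12 macrophage markers were at 0 in the vascular cells of HFHC 4.

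Clec4g in vascular cells was at 435 CPM in control 2, where hepatocyte-gate cells gave 12.9 CPM, and at 797 CPM in HFHC 4. HFHC 4 held 0 hepatocyte-gate cells, so that its background level was not measured, and 539 of its 616 cells were sinusoidal. Its vascular cells had 42 Clec4g UMIs and 0 of Stab2, where sinusoidal cells had 2953 and 860. Colec12 and Marco had 0 UMIs in the vascular cells of every library. Of the other receptors 10 were tested, 2 were higher in sinusoidal cells, Clec1b (4.20, SE 0.60, adjusted p = 0.000775) and Fcgrt (1.35, SE 0.34, adjusted p = 0.0321), and 0 were lower. The call of Fcgrt ended with DESeq2 (adjusted p = 0.299) and with 3 gate markers (0.0643). The median of the 10 was 0.49, against -0.0011 over all genes tested. Of 29 tested endocytosis and lysosome genes, the protease Ctsl was higher (1.68, SE 0.39, adjusted p = 0.0192) and Ctsh lower (-4.36, SE 0.87, adjusted p = 0.0233), of which the latter call ended with DESeq2 (0.183).

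Lymphatic endothelial cells drain the portal tracts and were found in the library labelled control 4, with 25 cells in the gate and 0 in every other library. With 1 library there was no test. Lyve1 was the receptor that set them off, with 336 UMIs (4075 CPM) against 30 in 40 sinusoidal cells of the same library (350 CPM), 11.7-fold higher. As a sinusoidal to lymphatic ratio this was 0.0858 (95% interval 0.0570 to 0.125). Of the lymphatic cells 84.0% had a Lyve1 UMI, against 32.5% of the sinusoidal ones, and 68.2% against 28.6% at 1000 UMIs per cell. The sum of Lyve1 over all cells of control 4, 1686 CPM, was above the 15.2 to 333 CPM of the other controls, and 336 of its 434 UMIs came from these 25 cells.

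Stab2, Stab1, Clec4g, Fcgr2b and Mrc1 were lower in lymphatic than in sinusoidal cells of control 4. Stab2 had 0 UMIs against 79, at least 25.3-fold lower, while Stab1 had 41 against 94 (497 and 1096 CPM, ratio 2.20, 1.51 to 3.26). The bound of Stab2 lay above the interval of Stab1. Clec4g had 1 UMI against 309 (ratio 297, 52.9 to 11770), Fcgr2b 6 against 211 (33.8, 15.3 to 93.2) and Mrc1 4 against 96 (23.1, 8.72 to 86.4). Scarf1 had 3 against 8, a ratio of 2.56 whose 95% interval spans equality. Msr1 had 0 against 3, Colec12 1 against 0 and Marco 0 in both, and no fold is given.

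**Figure D5:**
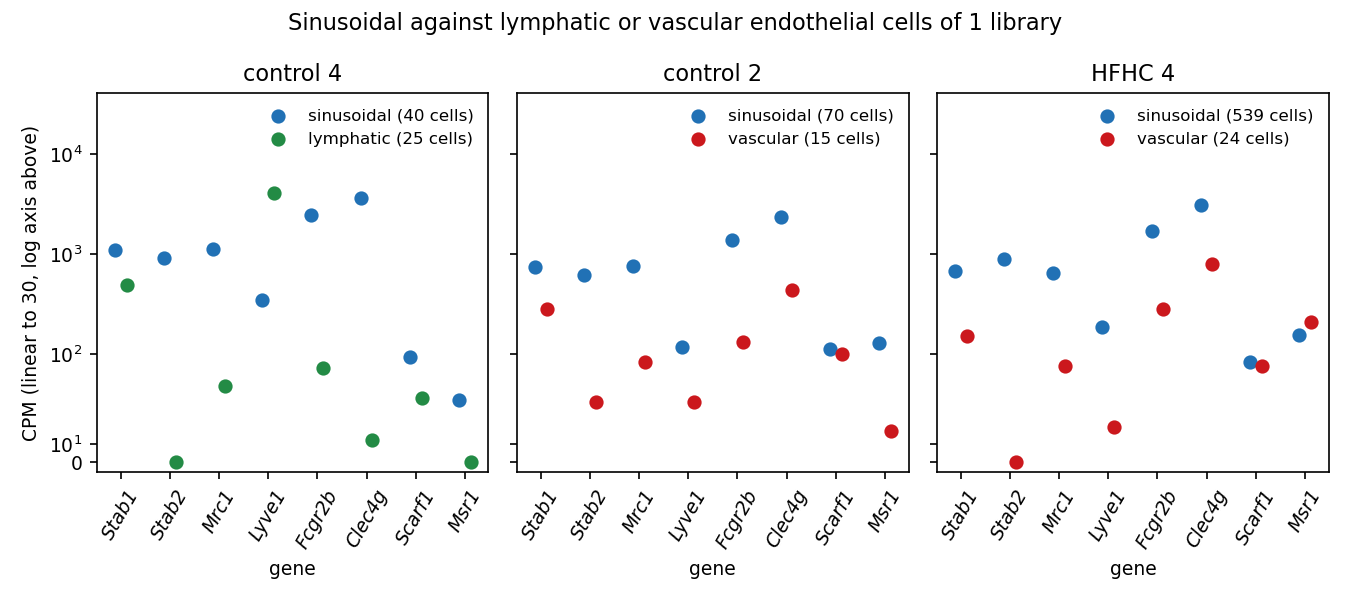
CPM of 8 receptors (axis linear to 30 and logarithmic above) in sinusoidal cells (blue) and in lymphatic cells of control 4 (green) or vascular cells of control 2 and HFHC 4 (red). Lyve1 is higher in lymphatic cells (4075 against 350 CPM), Stab2 is at 0 in lymphatic cells and in vascular cells of HFHC 4, and Scarf1 lies close in sinusoidal and vascular cells.

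Macrophages were few and came almost wholly from HFHC 1 to 3, so HFHC 3 was the 1 library with at least 5 cells in each of the endothelial (10 cells) and macrophage (15 cells) gates. There, the 10 receptors together were 4.73-fold higher in endothelial cells (95% interval 3.24 to 7.02; 103 against 39 UMIs), with no test. Stab1 had 26 UMIs against 0, at least 15.5-fold, and Clec4g 13 against 0, at least 7.75-fold. Lyve1 (3 against 0) and Scarf1 (2 against 0) were too few for a fold, and Colec12 and Marco had 0 in both. Mrc1 had 17 against 2 (ratio 15.2, 3.61 to 136) and Stab2 12 against 1 (21.5, 3.18 to 918). Fcgr2b was closer, with 27 against 19 (2.54, 1.36 to 4.84). Msr1 went the other way, with 3 UMIs against 17 (0.316, 0.0593 to 1.09), an interval that includes 1.

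Across the macrophage gate of HFHC 1, 2 and 3, Fcgr2b was at 77.1, 136 and 311 CPM and Msr1 at 57.8, 117 and 278 CPM. For both genes HFHC 3 was highest, where hepatocyte-gate cells gave 1.68 and 0.56 CPM. Mrc1 was at 67.5, 19.4 and 32.7 CPM and Clec4g at 38.6, 0 and 0 CPM. Stab2 was at 145, 19.4 and 16.4 CPM, with 15 UMIs in 10 of the 19 cells of HFHC 1. Over all 47 cells of HFHC 1, Stab2 was likewise at 145 CPM (44 UMIs). Of these UMIs, 22 lay in 3 sinusoidal-gate cells and 15 in the macrophage gate itself, so the equal value is no comparison with other cells. The source of Stab2 UMIs in the macrophage gate was not tested. HFHC 1 and HFHC 2 held 0 hepatocyte-gate cells, so that their background levels were not measured. Stab1 was at 38.6, 136 and 0 CPM. Of the 66 macrophage-gate cells, 6 had more markers of a Kupffer cell list (Vsig4, Timd4, Cd163, Folr2 and Slc40a1) than of a monocyte list. In 43 the monocyte list, which holds Trem2 and Gpnmb among others, had more. Clec4f, on neither list, was found in 14 of the 66, so the 6 are not all cells with a Kupffer cell marker. These 6 held 6 UMIs of Mrc1, 2 of Msr1 and 0 of Marco.

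An edgeR fit without a library term set 6 endothelial sums against the 3 macrophage sums. In it, gate and library cannot be told apart for most sums, since all macrophage sums are of HFHC mice and most endothelial sums are of controls. Of 2102 genes 29.1% passed, and 16.5% were higher in endothelial sums. Of 7 receptors tested, 5 passed, all higher in endothelial sums: Clec4g (log2 6.92, SE 1.15, adjusted p = 0.00106), Mrc1 (3.63, 0.47, 0.000103), Stab1 (3.55, 0.69, 0.00174), Stab2 (3.10, 0.73, 0.00682) and Fcgr2b (3.02, 0.54, 0.000975). With at least 20 cells per sum, Stab1 missed the threshold (adjusted p = 0.0520). Lyve1 (4.97, SE 1.71, adjusted p = 0.0574) and Msr1 (-0.44, SE 0.65, adjusted p = 0.681) did not pass. Of 17 other receptors tested, 5 were higher in endothelial sums, and 7 lower. Over the settings these counts ran from 1 to 8 higher and from 2 to 12 lower, with 1 higher and 5 lower at 20 cells per sum. The 4 with the smallest adjusted p were Clec12a (-9.07, SE 0.64), the lipopolysaccharide co-receptor Cd14 (-6.75, SE 0.59) and the activating Fc receptors Fcgr3 (-8.57, SE 0.89) and Fcgr4 (-7.79, SE 0.99), with adjusted p of 1.73e-06 to 8.76e-05. Of 26 endocytosis and lysosome genes, 4 were higher, led by the clathrin adaptor Dab2 (2.64, SE 0.50, adjusted p = 0.00151), and 8 lower, led by the protease Ctss (-9.03, SE 0.86, adjusted p = 2.72e-05).

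Outside endothelium and macrophages, Fcgr2b was also found in the gates of lymphocytes and granulocytes that carry this inhibitory receptor. Its UMIs were in 13 of 62 cells of the B cell gate (126 CPM) and in 12 of 41 cells of the basophil and mast cell gate (121 CPM). The B cell value pools 5 libraries. At 1000 UMIs per cell, 94.7% of 38 B-gate cells of control 2 and 93.3% of 15 of HFHC 3 had none of the receptors. No cell of either held more than 1. Over all libraries, 85.0% of 60 B-gate cells had none and 3.33% held 3 or more. Whether the pooled Fcgr2b level is that of B cells was not tested. In the basophil and mast cell gate, Clec4g, Stab2 and Mrc1 were at 0. The 65 T and NK cells of HFHC 3 held 1 UMI of Fcgr2b (5.68 CPM). Colec12 (chromosome 18, 9707595 to 9882644) was in 11 of 43 mesenchymal-gate cells, with at most 4 UMIs in a cell (71.1 CPM). The 20 mesenchymal-gate cells of control 1 also held 24 Stab2 UMIs in 7 cells (265 CPM) but 1 of Stab1, while sinusoidal cells of that library held 70 and 60.

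The diet was first compared over the sum of all cells of a library. Clec4g was at 1179, 244, 5724 and 1224 CPM in controls 1 to 4 and at 184, 9.45, 6.50 and 2842 CPM in HFHC 1 to 4. Stab2 was at 593, 63.6, 1077 and 315 CPM and at 145, 9.45, 8.23 and 805 CPM. HFHC 1 to 3 were low and HFHC 4 was among the controls, and the groups overlapped. The endothelial gate held 18, 89, 541 and 76 cells in the controls and 3, 0, 10 and 589 in the HFHC libraries, out of 47 to 875 cells per library. In such sums, fewer endothelial cells and less RNA per cell cannot be told apart. edgeR called 0% of 6666 genes (54 had an unadjusted p under 0.05), and DESeq2 called 0 (126 at that unadjusted level). Colec12 had 1 to 7 UMIs in the control libraries and 3 to 9 in the HFHC libraries, below the count filter. The 8 tested receptors had log2 changes from -3.17 (Lyve1, SE 1.67, adjusted p = 0.999) to -0.21 (Msr1, SE 0.99, adjusted p = 0.999). Medians were -0.26 over 18 other receptors and 0.01 over 37 endocytosis genes, with 0 called in either, against 0.06 over all genes.

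Within the sinusoidal gate, none of the 8 tested receptors differed between HFHC 4 and the controls by edgeR, which called 12 of 4120 genes (0.291%), 0.146% higher and 0.146% lower. With 1 HFHC mouse, the fit takes it to vary as the controls do. The log2 changes were -0.42 for Stab1 (SE 0.41), -0.41 for Mrc1 (SE 0.41), -0.44 for Lyve1 (SE 0.49), -0.28 for Fcgr2b (SE 0.42), -0.19 for Clec4g (SE 0.43), -0.07 for Scarf1 (SE 0.57), -0.02 for Stab2 (SE 0.40) and 0.27 for Msr1 (SE 0.49), all with an adjusted p of 0.999. A p that misses the threshold does not show that the levels were alike. HFHC 4 lay below every control for 2 of 8 receptors, Stab1 and Mrc1, as it did for 17.1% of the genes tested, and above every control for 0 of 8 (10.2%). The signs of Stab2, Clec4g and Scarf1 turned under some alternatives given in the closing section, whereas those of Stab1, Mrc1, Lyve1, Fcgr2b and Msr1 did not in 16 settings. Without control 4, 13 genes were called and 0 of the receptors.

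Of 13 other receptors tested in the sinusoidal gate, 1 passed, the fatty acid translocase Cd36, a class B scavenger receptor (1.53, SE 0.38, adjusted p = 0.0310). The call of Cd36 held in 9 of 16 settings. It ended without control 1 (adjusted p = 0.417), control 2 (0.157) or control 4 (0.212), in the 3 libraries outside the barcode-sharing set (0.165), without a count filter (0.175), with at least 20 cells (0.417) and with clustering (0.509). The median of the 13 was 0.01, against -0.07 over all genes tested. Of 33 endocytosis and lysosome genes 0 passed, and the smallest adjusted p was that of Ctsd (-0.91, SE 0.44, adjusted p = 0.893). Markers of other cells also differed between libraries of this gate. The 12 hepatocyte markers summed to 98.3, 1091, 28.0 and 58.3 CPM in controls 1 to 4 and to 27.1 CPM in HFHC 4. The 12 macrophage markers summed to 511, 43.7, 47.1 and 256 CPM and to 40.7 CPM. Of these markers 4, 8, 6 and 8 were at 0 in controls 1 to 4 and 4 in HFHC 4. In control 1, only 5 of the 18 cells held no macrophage marker. The part of these hepatocyte and macrophage markers in the results was not tested.

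The sinusoidal cells of HFHC 4 were divided by Esm1, a secreted endothelial proteoglycan, which had a UMI in 131 of its 539 cells. Lyve1 was 1.75-fold higher in cells with Esm1 (266 against 152 CPM, 95% interval 1.29 to 2.37 for counting error). Stab2 was lower there (770 against 957 CPM, ratio 0.805, 0.690 to 0.937), as were Clec4g (0.889, 0.820 to 0.962) and Fcgr2b (0.889, 0.797 to 0.990). The ratios of Stab1, Mrc1, Scarf1 and Msr1 lay between 0.842 and 0.938 with intervals that include 1, and Colec12 had 1 UMI with and 2 without Esm1, Marco 0. Cells with Esm1 were deeper, with 305038 UMIs over 131 cells against 653295 over 408, and all come from 1 mouse, so no test is given.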

How the data were processed

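The authors deposited 1 matrix of raw counts of UMIs, with a row per gene and a column per cell. Per the submitters' processing notes, the authors used Cell Ranger 3.0.1 and Seurat with the mm10 build, and the deposited cells have at least 202 genes each. The Seurat version and the filters on cells: not given in the sources used here.

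From these counts, a barcode seen in more than 1 library was assigned to the one with its highest UMI total. A cell took the gate with strictly most detected markers (12 per gate, at least 2). Endothelial subtypes needed 2 markers, zones and macrophage subtypes 1. Cells called doublets were kept, except in an alternative. Counts were summed per library and gate with at least 10 cells (5 between endothelial and macrophage or vascular gates) and compared by the robust quasi-likelihood test of edgeR 4.0.16 after TMM scaling and filterByExpr in R 4.3.3, with Benjamini-Hochberg adjustment over all genes tested and a threshold of 0.05. Gates of the same libraries were compared with library as a block. The SE is the absolute log2 change divided by the square root of F. Ratios within a library carry exact conditional 95% intervals, and a count of 0 allows 3 counts. Folds given as at least use these 3 counts and are not lower limits of such intervals. Shares carry Wilson 95% intervals in the result tables (scipy 1.17.1, Python 3.11.15). Likeness was taken over genes reaching 50 CPM in a sum. The edgeR fit was tested on simulated counts.

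All 10 receptors enter each comparison, though Colec12 and Marco did not pass the count filter and were not tested with it, and of each other list at most the 4 genes lowest in adjusted p may be named. Members, lists, gates and the division by Esm1 were chosen with earlier results of these data known. The alternatives tried were no count filter, DESeq2 1.42.0 as the test or for scaling, all barcode copies kept, at least 500 genes per cell, Scrublet doublets removed, 3 gate or lymphatic markers, 2 zone markers, other minima of cells, gates without the other gate's markers, Leiden clusters (scanpy 1.11.5, leidenalg 0.10.2), leaving out 1 library at a time and a block for the replicate number. Sets of libraries, cells with no macrophage marker and leaving out libraries in the unblocked fit were added after seeing the data. Numbers of settings in which a call held or a sign stayed include the reported fit. Some minima of cells repeated the reported fit: 20 cells for zones, 5 for the sinusoidal gate and 10 for the unblocked fit. In the sinusoidal gate, a minimum of 20 cells gave the same sums as leaving out control 1. Clec7a was not analysed here.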

Additional observations from a re-analysis of the deposited data

Results flagged for a closer look

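Of 28 groups of 4 libraries, 10 held a library whose gap to the nearest other one was a large part of the group's range (Dixon's 95% limit). The nominal rate of 1 in 20 is no yardstick for this number, since the groups share libraries and some flags rest on 1 UMI. Among the HFHC libraries, HFHC 4 stood above HFHC 1 to 3 in the sums of all cells for Stab1 (632 CPM), Mrc1 (597 CPM), Fcgr2b (1552 CPM), Clec4g (2842 CPM), Scarf1 (81.6 CPM) and Msr1 (154 CPM), and it also held 589 endothelial-gate cells against 3, 0 and 10. Among the controls, control 1 stood above the others for Colec12 over all cells (41.1 CPM, 7 UMIs) and in the sinusoidal gate (19.7 CPM, 1 UMI), and control 3 for Marco (1.20 CPM, 1 UMI). Control 2 stood below the other controls for Lyve1 in the sinusoidal gate (118 CPM). No explanation of these was tested.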

How the results depend on the processing

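Few sinusoidal cells outside 3 libraries, 1 HFHC mouse in the sinusoidal gate and 66 macrophage-gate cells limit these results. For counts of called genes, 53 of 69 values stayed within 1.5 times the reported one. Over all cells, 1 gene was called in control 3, control 4 and HFHC 4 alone. In the sinusoidal gate the 12 calls became 58 with DESeq2, 3 with at least 20 cells, 3 with clustering (19 clusters, 4 taken as sinusoidal) and 3 to 25 without 1 control at a time, with 3 without control 1 and 25 without control 3. Between endothelial and macrophage sums the 612 calls became 1918 without a count filter, 387 with all barcode copies and 339 with at least 20 cells. In HFHC 3 the ratio of the receptors together became 7.21 with all copies. Between sinusoidal and vascular cells the 106 calls became 54 with DESeq2, 188 with its size factors and 190 with at least 500 genes per cell. Between zones the 85 calls became 21 with DESeq2 and 17 to 36 without 1 library at a time (17 without control 2, 34 without control 3, 36 without HFHC 4), of which the last rests on fewer libraries. The causes of these shifts were not tested.

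Signs of small changes turned. Over all cells of control 3, control 4 and HFHC 4, Stab2 was 0.30, Fcgr2b 0.044, Scarf1 0.31 and Msr1 0.87, and Msr1 ranged from -0.57 (without control 4) to 0.12 (without HFHC 3) when 1 library was left out, with 0.04 without HFHC 2. In the sinusoidal gate, Stab2 was 0.11 without a count filter, 0.20 with at least 20 cells, 0.17 with clustering, and between -0.12 (without control 2) and 0.20 (without control 1) with 1 library left out, with 0.05 without control 3. Clec4g ran from -0.30 (without control 2) to 0.11 (without control 3) with 1 library left out, and was -0.45 in control 3, control 4 and HFHC 4 alone. Scarf1 was 0.040 without a count filter, 0.027 in these 3 libraries and -0.090 (without control 3) to 0.093 (without control 2) with 1 library left out. Between endothelial and macrophage sums, Msr1 ran from -0.78 (without HFHC 1) to 0.40 (without HFHC 3) with 1 library left out. Between zones and with 1 library left out, Lyve1 ran from -0.39 (without control 3) to 0.047 (without control 2), and was -0.99 with DESeq2, Clec4g from -0.10 (without HFHC 4) to 0.035 (without control 2) and Scarf1 from -0.59 (without control 3) to 0.18 (without HFHC 4). None of these values passed the test. In the unblocked fit, Lyve1 passed in 5 of 19 settings.

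Replicate numbers of the labels were taken as names. Same-numbered libraries of the 2 diets had correlations of 0.45, -0.19, -0.46 and 0.17 over 9670 genes, 3 of 8 libraries correlated best with their own number, and a fit with the replicate block called 0 genes over all cells. A minimum of 20 cells and leaving out a library gave no test for vascular cells (1 library left), leaving out HFHC 4 none for diet in the sinusoidal gate, and the blocked test of endothelial against macrophage gates had 1 library.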
